A study of Mus musculus with 8 samples.

Results

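Pax7 and Pax3 are paired-box and homeodomain transcription factors of skeletal muscle and its stem cells. The clusters examined here are all those listed by the authors that overlap either RefSeq gene or the 3000 bp on each side of it in mouse build mm10. By this rule 24 of 27878 listed clusters were members, 20 at Pax7 and 4 at Pax3. A cluster is a stretch of the genome that the authors list as 1 unit of their methylation comparison. How clusters were formed is not stated, and 10.4% of all listed clusters span only 1 or 2 bp. The genes were chosen for their role in muscle stem cells and not for any methylation value. Earlier results of these data were known when they were chosen.

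The clusters come from reduced representation bisulfite sequencing of sorted muscle stem cells of Tg:Pax7-nGFP/+ mice. Of the 8 samples, 4 were labelled Fixated and 4 Live, with 1 animal behind each. The fixed cells had been treated with 0.5% paraformaldehyde, and all animals of both groups carried the reporter; the labels state neither age nor sex. Each library was made from 95 ng of DNA. The transgene places green fluorescent protein in the nuclei of cells in which Pax7 regulatory sequence is active. This reporter is known to carry Pax7 genomic sequence, and reads from the transgene and from the endogenous gene cannot be told apart in the lists used here. For none of the 24 clusters do these files give values of single samples, a methylation level or a read depth. The identity of the cells therefore could not be checked against marker genes, and no comparison between animals could be made.

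In adult muscle, Pax7 marks the quiescent satellite cells that lie beneath the basal lamina of the myofibre and is needed to maintain them. Pax3 acts earlier, in the progenitors of the embryonic somite that give rise to limb and trunk muscle, and persists in satellite cells of some adult muscles. Both bind DNA through a paired domain and a homeodomain and activate myogenic genes such as Myf5. Reduced representation bisulfite sequencing reads a CpG-rich fraction of the genome, usually after cutting at the sequence CCGG. Where clusters lie along a gene shows where a comparison of methylation is listed, and not how much methylation was present. The lists do not hold all clusters that the authors numbered. On chromosome 4, their deposited table gives 1 region the number 2467, while 2009 clusters are listed there. Whether the unlisted clusters were compared as well is not known.

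No cluster at either gene was called different between fixed and live cells. In the authors' lists, 0 of the 20 clusters at Pax7 and 0 of the 4 at Pax3 were called, beside a background of 0.0753% over all listed clusters (21 of 27878). A count of 0 among 24 allows a called share of up to 12.5% (3 clusters of the total, counting error only), which lies far above the background. For Pax7 alone the same limit was 15%, and for Pax3 alone it was 75%. At this number of clusters, a called share like that of the whole list was not detectable. The nearest called cluster to Pax7 on chromosome 4 lay at 137920758 to 137920889, 1816170 bp away, in a region that the authors' deposited table assigns to Ece1. Chromosome 1, which holds Pax3 and 1594 listed clusters, had 0 called clusters. None of the 21 regions of the authors' deposited table was assigned to a Pax gene (0 of 21).

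Sequence at the start of Pax7 is shown first because listed clusters flank its annotated start site. RefSeq promoter sequences (GRCm38.p6, which is the assembly behind mm10) were matched by symbol for 7 of the 9 Pax genes, with 10 entries; Pax3 and Pax4 had no entry. Each run below holds the 250 bases before the start site, 5′ to 3′ along the gene's own strand, with capitals marking CCGG. The 3 runs were chosen as a promoter largely inside a cluster (Pax7), one partly inside a cluster (Pax6) and one with no CCGG and no cluster (Pax8).
Pax7, chr4:139832969-139833218, minus strand: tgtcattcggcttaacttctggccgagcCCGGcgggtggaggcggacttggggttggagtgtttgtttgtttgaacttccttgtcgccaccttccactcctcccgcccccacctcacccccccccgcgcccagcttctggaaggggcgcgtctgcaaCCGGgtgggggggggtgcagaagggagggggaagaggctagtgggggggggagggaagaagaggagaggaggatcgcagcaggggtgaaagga
Pax6, chr2:105668646-105668895, plus strand: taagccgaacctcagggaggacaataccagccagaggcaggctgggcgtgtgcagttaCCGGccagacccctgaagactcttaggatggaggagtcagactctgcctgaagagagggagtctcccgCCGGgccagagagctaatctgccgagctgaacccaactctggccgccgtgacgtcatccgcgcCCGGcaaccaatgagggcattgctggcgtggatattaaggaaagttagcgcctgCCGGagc
Pax8, chr2:24475600-24475849, minus strand: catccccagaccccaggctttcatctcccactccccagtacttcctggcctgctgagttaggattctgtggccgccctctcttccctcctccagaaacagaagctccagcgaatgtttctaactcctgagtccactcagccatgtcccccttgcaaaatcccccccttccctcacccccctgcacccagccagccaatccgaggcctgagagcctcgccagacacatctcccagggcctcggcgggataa

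In the Pax7 run, bases 1 to 232 counted from the 5′ end lay inside a listed cluster, and the 18 bases nearest the start site did not. That part held both CCGG sites of the run and, in full, 12 of its 13 CpG dinucleotides, whose cytosines the assay reads for methylation. The other CpG lay across the edge of the cluster, with its C at base 232. The Pax6 run shared 81 of its 250 bases with a cluster and held 4 CCGG sites. The Pax8 run had 6 CpG dinucleotides but no CCGG, and the cluster nearest to its start site lay 1893 bp away.

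The letters CCGG, which read the same on both strands, occurred in 52.8% of all 32851 promoter entries, each taken as 250 bases before to 50 bases after the start. A listed cluster overlapped 14.7% of the entries with CCGG and 0.0387% of those without it. Over all entries this share was 7.76%. Among the Pax genes, 3 of the 10 entries overlapped a cluster, 1 of Pax7 and 2 of Pax6. Holding CCGG did not go along with a cluster in every Pax entry. The most downstream of the 3 Pax2 entries had 7 CCGG sites over the 300 bases and the Pax5 entry had 1, and neither overlapped a cluster. These matches describe letters in a window and not sites that were cut or sequenced.

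Pax7 (gene ID 18509) spans 139737059 to 139833530 on chromosome 4 in mm10, a length of 96472 bp. It is transcribed from the minus strand, per the promoter entry, so its start lies at the higher coordinate. Its 20 clusters covered 5251 bp, or 5.12% of the 102472 bp window. Of these clusters, 19 overlapped the gene and 1 lay upstream of it. Their lengths ran from 60 to 1171 bp with a median of 184 bp, while the median of all listed clusters was 89 bp with quartiles of 57 and 145 bp. At Pax7, 15 of 20 clusters were longer than that median, and 6 were longer than 300 bp, a length that 5.45% of all clusters exceeded.

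The clusters were crowded toward the start of Pax7. Divided into 10 equal parts of 10247 bp, the window held 13 clusters in its 2 parts at the start and 7 in the other 8 parts. The 13 clusters covered 4175 bp, which was 79.5% of the covered length. Their median length was 222 bp, against 141 bp for the other 7.

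Close to the start site at 139832968, a cluster of 336 bp (139832987 to 139833322) lay 19 bp upstream, which is the one that overlaps the printed promoter. On the downstream side, a cluster of 758 bp (139832086 to 139832843) began 125 bp from the start site. The start site itself fell in the gap of 143 bp between these clusters, so neither included it. RefSeq's outer bound of the gene lies 562 bp beyond this start site, so the cluster counted as upstream is still within the annotated gene.

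Farther into the gene, clusters followed at 139831609 to 139831911 (303 bp), 139830156 to 139830350 (195 bp), 139829508 to 139829618 (111 bp), 139828310 to 139828548 (239 bp) and 139827770 to 139827834 (65 bp). These 5 lay between 1057 and 5134 bp downstream of the start site. A second dense stretch began 8171 bp downstream, with clusters at 139824682 to 139824797 (116 bp), 139823971 to 139824448 (478 bp) and 139823606 to 139823827 (222 bp). It ended with the longest cluster of the gene, of 1171 bp at 139821268 to 139822438, which lay 10530 bp from the start site. Only 28 of the 27878 listed clusters were longer than this one. A cluster of 110 bp at 139818139 to 139818248 closed the start side of the gene, 14720 bp from the start site.

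The rest of Pax7 held 7 scattered clusters. In order from the start they lay at 139805681 to 139805740 (60 bp), 139796041 to 139796213 (173 bp) and 139780827 to 139780911 (85 bp). Toward the 3′ end followed clusters at 139766096 to 139766322 (227 bp), 139761967 to 139762107 (141 bp), 139757010 to 139757330 (321 bp) and 139750566 to 139750634 (69 bp). The last of these lay 13507 bp inside the 3′ end of the gene. With the flank of 3000 bp, the final 16507 bp of the window had no listed cluster, the longest such stretch at Pax7. The gene table used here gives outer bounds only, so the clusters were not assigned to exons or introns.

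Gaps between neighbouring clusters at Pax7 ran from 143 to 15129 bp with a median of 2939 bp. Of the 19 gaps, 7 were shorter than 1000 bp, and all of these lay in the 2 parts at the start. The 4 gaps longer than 9000 bp all lay farther downstream, between 139766322 and 139818139. The cluster upstream of the gene, 71 bp at 139836262 to 139836332, was 2732 bp beyond the outer bound of Pax7.

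**Figure D1:**
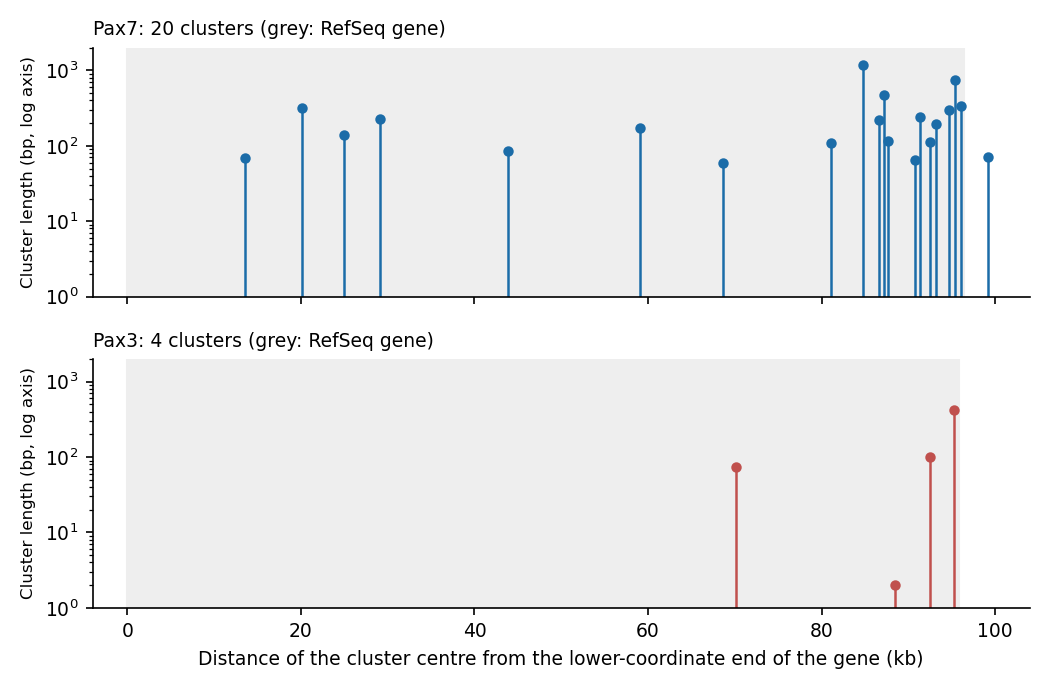
Listed clusters at Pax7 (top) and Pax3 (bottom) by distance of the cluster centre from the lower-coordinate end of the gene in kb, with cluster length in bp on a log axis; grey marks the RefSeq gene and each stem is 1 cluster. The 20 Pax7 clusters crowd toward the upper-coordinate end, where the gene starts, and the 4 Pax3 clusters all lie more than 70 kb from the lower end.

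At its start, Pax7 shares sequence with a noncoding RNA gene. Gm46873, a long noncoding RNA gene of unnamed function, spans 139833178 to 139852920 on the plus strand and overlaps the outer bounds of Pax7 by 353 bp. It held 7 listed clusters within its own bounds, of which 2 were also members of the Pax7 window, the cluster at the start and the one upstream. The cluster at the start overlaps both genes and cannot be assigned to one over the other, while the upstream one lies inside Gm46873 and outside Pax7. A second noncoding RNA gene, Gm42334 (139734957 to 139735657), lay in the flank beyond the 3′ end and had 0 clusters.

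Pax3 (gene ID 18505) was covered far less, although it has nearly the same length. It spans 78101267 to 78197136 on chromosome 1, or 95870 bp, and the tables used here give no strand for it. Its 4 clusters covered 594 bp, or 0.583% of the 101870 bp window. The longest, of 419 bp at 78196350 to 78196768, lay 368 bp inside the upper-coordinate end of the gene and was longer than 97.4% of all listed clusters. The next lay at 78193715 to 78193814 (100 bp), 3322 bp inside that end. A cluster of only 2 bp followed at 78189715 to 78189716, a size of 1 or 2 bp that 10.4% of all listed clusters had. The fourth, of 73 bp at 78171325 to 78171397, lay 25739 bp inside the upper end.

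The gaps between the Pax3 clusters were 2535, 3998 and 18317 bp, so none was under 1000 bp. The lower-coordinate 70058 bp of the gene had no listed cluster, and with the flank this stretch was 73058 bp, or 71.7% of the window. No member lay in either flank of Pax3. Just beyond its upper flank, however, 5 more clusters lay 3095 to 7047 bp from the gene and covered 870 bp. Of these, 3 overlapped Gm33152, a noncoding RNA gene at 78201222 to 78203051. At Pax7, 0 further clusters lay between 3000 and 10000 bp outside the gene, and the other clusters of Gm46873 lay beyond that distance.

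Set side by side, Pax7 had 5.00 times as many clusters as Pax3 and 8.84 times the covered length. Per kb of gene and flanks, Pax7 had 0.195 clusters and Pax3 0.0393, with exact binomial 95% intervals of 0.119 to 0.301 and 0.0107 to 0.101 that cover counting error only. The intervals did not overlap, but neighbouring clusters are not independent, so this is a description of the lists. The contrast depended on the window and on how neighbours were counted. With flanks of 10000 bp, Pax7 had 20 and Pax3 9 clusters, a ratio of 2.22, with 0.172 and 0.0777 per kb and overlapping intervals of 0.105 to 0.265 and 0.0355 to 0.147. With neighbours within 1000 bp merged, the counts were 13 and 4, a ratio of 3.25, and the intervals of 0.0676 to 0.217 and 0.0107 to 0.101 also overlapped. In the 500 kb on each side outside the windows, 44 clusters lay around Pax7 and 15 around Pax3, or 0.0440 and 0.0150 per kb. The density in the window was thus 4.44 times that of its surroundings at Pax7 and 2.62 times at Pax3. This distance was chosen after the positions were seen. The part of the surroundings, or of reads from the reporter, in the difference between both genes was not tested.

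**Figure D2:**
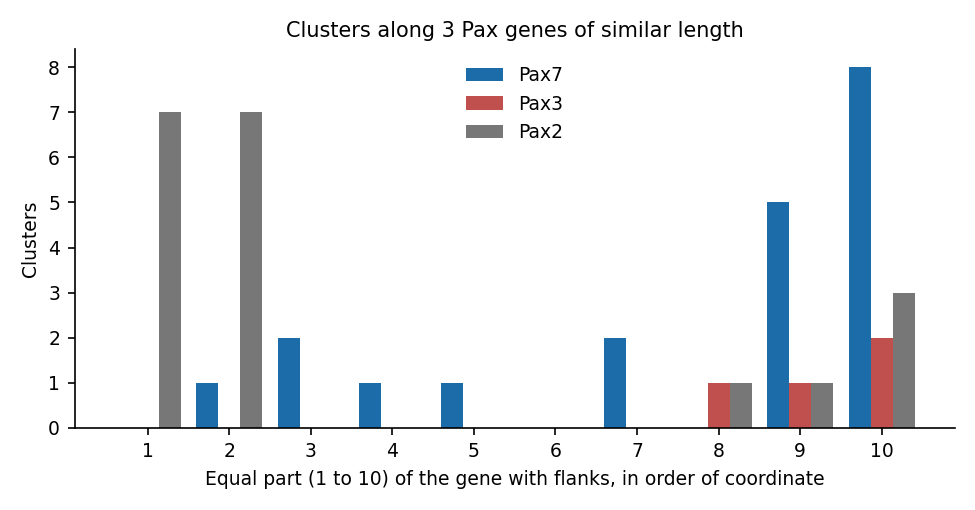
Number of listed clusters in each of 10 equal parts of the gene with 3000 bp flanks, in order of coordinate, for Pax7, Pax3 and Pax2. Pax7 holds 13 of its 20 clusters in the last 2 parts, where it starts, and Pax2, which runs on the other strand, holds 14 of 19 in its first 2 parts.

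Among protein-coding genes within 20% of its length, and with flanks of 3000 bp, Pax7 had the highest cluster density, closely followed by Pax2. With flanks of 10000 bp Pax2 was above it (0.188 against 0.172 per kb), and among genes within 50% of its length Gnas and Bcor were (0.219 and 0.277 per kb). In the 20% range, all 1257 other protein-coding genes whose length was within 20% of that of Pax7 had fewer clusters per kb, and none of them had as many clusters. Their median was 1 cluster with quartiles of 0 and 2, the highest count was 19, and 31.6% had no cluster at all. Pax7 was also first of these genes by the share of the window covered, where their median was 0.0727%. Its longest stretch without a cluster, 16507 bp, was shorter than in any of them, where the median was 88119 bp. Over all 21900 protein-coding genes of any length, 16 genes had more clusters than Pax7, and 96.1% had fewer clusters per kb, a measure in which short genes reach high values. Whether reads from the Pax7 sequence of the reporter added to the clusters listed at Pax7 was not tested.

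Pax3 stood in the upper tail of the genes of its length without being extreme. Of 1262 other genes within 20% of its length, 90.8% had fewer clusters per kb, with an exact 95% interval of 89.1 to 92.3%. That interval takes the density of Pax3 as exact and leaves out the counting error of its 4 clusters. The density itself had an interval of 0.0107 to 0.101 per kb. The median of these genes was 0.0104 per kb and their upper quartile 0.0224, so the place of Pax3 is less certain than its rank interval shows. By number of clusters, 89.1% had fewer than 4, 55 genes also had 4 and 83 had more. Its covered share exceeded that of 90.6% of these genes, whose median was 0.0714%. The longest stretch without a cluster was shorter in 28.9% of them. Pax7 is itself among these genes, as Pax3 is among those compared with Pax7.

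**Figure D3:**
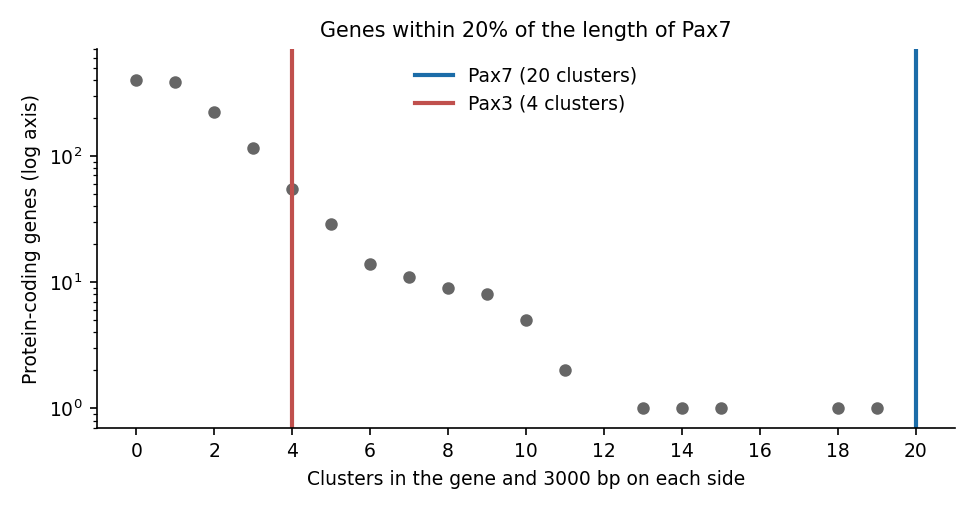
Number of protein-coding genes (log axis) by their count of listed clusters in the gene and 3000 bp on each side, for the 1257 genes within 20% of the length of Pax7. Vertical lines mark Pax7 at 20 clusters, beyond the highest count of 19, and Pax3 at 4 clusters.

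The genes closest in length show the same spread. The 5 nearest in length to Pax7 were Cerkl with 2 clusters, the transcription factor gene Nfix with 15, Myocd, which encodes the smooth muscle coactivator myocardin, with 0, Gab3 with 0 and the relaxin receptor gene Rxfp1 with 1. The 5 nearest to Pax3 were Raph1, Slco6d1 and Nudcd3 with 0 each, Mogat1 with 1 and Lhpp with 3. The 3 densest other genes within 20% of the length of Pax7 were Pax2 with 19 clusters (0.195 per kb), Bcl11b, a zinc finger factor of T cells and neurons, with 18 (0.180 per kb), and Lmx1b, a LIM homeodomain factor of limb patterning, with 14 (0.162 per kb).

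By its cluster counts along the window, Pax7 was most like Lmx1b. The measure was the summed difference in cluster counts over the 10 parts of each window, read from start to end where the strand is given, for 860 genes of similar length with at least 1 cluster. Lmx1b differed from Pax7 by 8 clusters, Tnrc18 by 10 and Pax2 by 11, while the median gene differed by 19. These differences depend on the number of clusters as well as on their places. Of the 860 genes, 382 had only 1 cluster, so the measure does not show a likeness of places alone. With only 4 clusters, Pax3 had no distinct likeness: 11 of 858 genes differed from it by 1 cluster, and of these Adgrd1, Bicra and Bmp2k come first by name. The median difference from Pax3 was 3 clusters.

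The Pax family is usually divided by domain content into Pax1 with Pax9, Pax2 with Pax5 and Pax8, Pax3 with Pax7, and Pax4 with Pax6. Coverage differed widely between Pax7 and Pax3, and also within other subgroups. Pax6 had 14 clusters and Pax4 0, while Pax2 had 19, Pax5 6 and Pax8 1. Pax1 and Pax9 were closer, with 6 and 5 clusters and 2.75% and 2.67% of the window covered. Per kb, however, Pax1 had 0.314 and Pax9 0.184. Ordered by clusters per kb, Pax6, the eye and brain regulator, came first with 0.394 (14 clusters in a gene of 29515 bp). Pax1, which acts in the sclerotome, followed with 0.314 (6 clusters). Pax7 took place 3 of 9 with 0.195.

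Pax2, a kidney and midbrain regulator, was almost level with Pax7 in density, at 0.195 clusters per kb, and in number, with 19. Its clusters covered 2806 bp, however, against 5251 bp at Pax7. Pax9, which acts in tooth and thymus development, had 5 clusters and 0.184 per kb. Pax3 took place 6 with 0.0393, just above the B cell factor Pax5, which had 6 clusters in a gene of 185947 bp (0.0313 per kb). The thyroid and kidney factor Pax8 had 1 cluster, covering 11 bp of its window (0.0164 per kb), and the pancreatic islet factor Pax4 had 0. In this order, the exact binomial intervals of all 8 pairs of neighbours overlapped. The interval of Pax7 lay apart from those of Pax3, Pax5 and Pax8, and that of Pax3 lay apart from those of Pax6, Pax1, Pax7 and Pax2. Neighbouring clusters are not independent, so these intervals are too narrow and only describe the lists. With flanks of 10000 bp, or with neighbours within 1000 bp merged, the intervals of Pax7 and Pax3 overlapped. For the other pairs, intervals are given in the main setting only.

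Against genes of their own length, 5 Pax genes stood near the top. The share of genes of similar length with fewer clusters per kb was 98.6% for Pax9, 99.3% for Pax1 and higher still for Pax2, Pax6 and Pax7. It was 91.7% for Pax5, 90.8% for Pax3 and 55.1% for Pax8. At Pax4, 56.4% of the 1701 genes of similar length also had 0 clusters. None of the 75 clusters at Pax genes was called (0 of 75), beside 0.0753% of all listed clusters (21 of 27878). This number of clusters is too small to tell the Pax genes from the whole list.

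**Figure D4:**
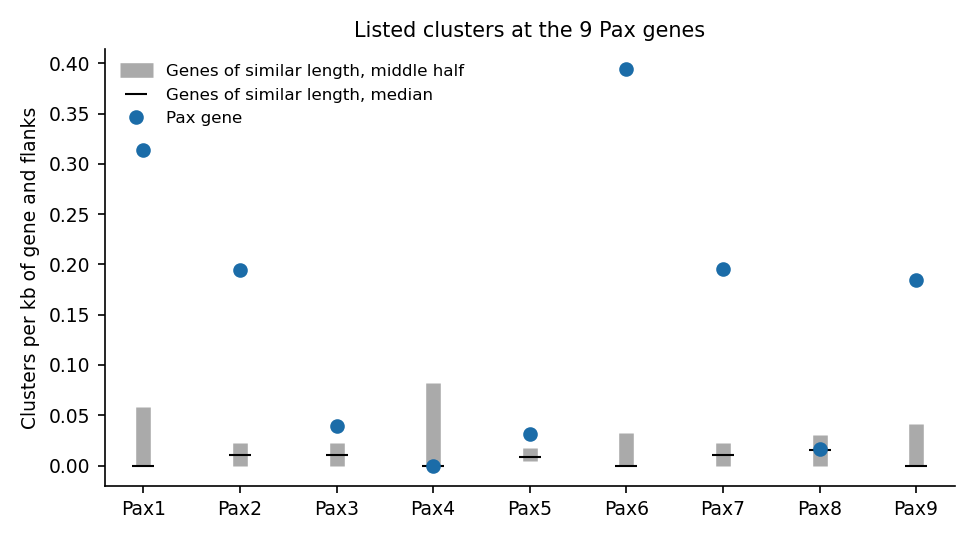
Listed clusters per kb of gene with 3000 bp flanks for the 9 Pax genes (blue points), with the median (black dash) and the range between quartiles (grey bar) of protein-coding genes within 20% of each gene's length. Pax7 and Pax2 both sit at 0.195, Pax3 at 0.0393 sits above its upper quartile, and Pax8 and Pax4 lie within the grey range.

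The other listed genes, which are regulators, partners and targets of Pax7 and Pax3, later myogenic factors and muscle stem cell markers, were covered unevenly. Of these 33 genes, 20 had at least 1 cluster, 69 in all. Of the 69 clusters, 0 were called, beside 0.0753% of all listed clusters (21 of 27878). At so low a share, 69 clusters are too few to show a difference from the whole list. Of all protein-coding genes, 47.9% had a cluster. Among regulators and partners, 11 of 14 had a cluster. Eya2, a transcriptional coactivator, had 9, and Msx1, a homeodomain factor, had 6. Paxbp1, which encodes a binding partner of both proteins, had 2 clusters, Carm1, the arginine methyltransferase that acts on Pax7, had 1 of 1 bp, and Kmt2a, a histone methyltransferase gene, had 4.

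Among 9 genes regulated by Pax7 or Pax3, 6 had a cluster, with 13 clusters in all. Lbx1, a homeodomain factor of migrating limb muscle progenitors, had 6, Fgfr4, a growth factor receptor gene, had 2, and Met, the receptor that muscle progenitors need to migrate, had 1. The myogenic determination genes Myf5 and Myod1 had 0, and so did the later myogenic factors Myog and Myf6. Among 8 surface and quiescence markers of muscle stem cells, 3 had a cluster, with 2 at Sdc4, 1 at Calcr and 1 at Spry1. The lists used here hold no cluster, and so no verdict on fixed against live cells, at Myf5, Myod1, Myog or Myf6; whether the authors compared clusters there that are not in these lists is unknown.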

How the data were processed

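Reads of the 8 libraries were processed by the authors on build mm10, with Bismark 0.14.4, Trim Galore 0.4 and ChIPseeker 1.12.1 listed as tools in the submitters' processing notes. How clusters were formed and called, with which coverage filter and threshold, is not stated in the labels or file headers. These deposited lists hold cluster positions pooled over all samples, 21 called and 27857 not called, with no value per sample, so depth and precision are unknown and no test was run. The called list and the authors' deposited table hold identical positions for all 21 regions.

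Positions were compared with RefSeq gene bounds (GRCm38.p6) by overlap of at least 1 bp, with pandas 2.3.3, numpy 2.4.6 and scipy 1.17.1 under Python 3.11.15, and plotted with matplotlib 3.10.9. Cluster counts were divided by the length of gene and flanks. Ranks are shares of other protein-coding genes within 20% of the gene's length, a description without a p-value. Intervals are exact Clopper-Pearson. Those of densities cover counting error only. Those of ranks reflect only the number of genes compared and leave out the counting error of the ranked gene. Counting was tested on simulated positions, where 300 of 300 gene windows were recovered. Genes named are Pax genes, genes of 5 fixed lists, genes in the windows, the nearest in length, the densest and the most alike; Ece1, Gm33152, Gnas and Bcor were named after their values were seen. Some list genes are counted but not reported here by name. The members and lists were chosen with earlier results of these data known. A genome sequence was not used here, so CpG density along the genes was not compared.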

Additional observations from a re-analysis of the deposited data

How the results depend on the processing

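Of 60 values recomputed, 47 moved by less than their interval or limit, which for small counts is wide. The 47 include the Pax3 density with flanks of 10000 bp, which was 0.0777 against 0.0393 per kb but stayed within its interval of 0.0107 to 0.101. They also include the called count, which was 0 in each setting. That count could not have moved, because no setting reached a called cluster, so it says nothing about stability. Pax7 kept 99.9% or more of genes of similar length below it under all 10 alternatives, and the 3 genes that exceeded it under 2 of them are given beside its rank. The ratio of Pax7 to Pax3 clusters fell from 5.00 to 2.22 with flanks of 10000 bp and to 3.25 with merging. Merging neighbours within 1000 bp left 13 clusters at Pax7. Its place among the 9 Pax genes became 4 with merging and 4 with flanks of 10000 bp. Flanks of 10000 bp gave Pax3 9 clusters and placed it above 97.9% of genes of similar length. That share was 88.6% with clusters of at least 50 bp, which moved Pax3 to place 7 of the 9 Pax genes, 88.3% with lengths within 50%, 92.9% with merging, 92.4% with no flank and 86.5% among genes with a cluster. The cause was not tested, except that the wider flank takes in the 5 clusters beyond the upper end. The ratio, the places among Pax genes and the called count (0 in each) were recomputed as alternatives chosen after seeing the data. No paired analysis was possible because these lists pool all samples, and leaving out single replicates was likewise not possible. The unknown depth limits what a gene without a cluster can show.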

Other observations

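In the authors' deposited table each region carries a running number on its chromosome. The region assigned to Ece1 on chromosome 4, the called region nearest to Pax7, has number 2467 in the authors' deposited table, while it stood at place 1425 of the listed clusters on that chromosome in order of position, or 57.8% of its number. Over the 19 regions on autosomes in the authors' deposited table, the place was 50.3 to 65.5% of the number, and for the 2 on chromosome X it was 91.5 and 91.8%. The stretches without a listed cluster at Pax7 and Pax3 are therefore stretches of these lists, and whether numbered clusters lay in them was not tested.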
